A study of Homo sapiens with 6 samples.

Results

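The genes described are 8 keratins and 2 further intermediate filament genes: the type II keratins KRT7, KRT8, KRT80, KRT81 and KRT86, the type I keratins KRT10, KRT18 and KRT19, vimentin (VIM) and nestin (NES). They were taken by gene symbol, from a list drawn up with earlier results of these data known. Each symbol matched 1 of the 38170 entries of the expression table, 10 entries in all. Total RNA was sequenced from A549, an established human lung adenocarcinoma line of alveolar epithelial character. In 3 libraries the cells carried an empty piggyBac vector (called vector here), and in 3 libraries a piggyBac construct, a transposon that inserts into the genome, overexpressed the locus LOC401312. All 6 libraries were thus of 1 cell line and of cells given a piggyBac construct. The study's title places the locus in the radiosensitivity of lung cancer cells through CPS1, the first enzyme of the urea cycle. No library was irradiated as far as the labels say.

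Groups were taken from the sample titles. For LOC401312 replicates 2 and 3 the genotype field instead gives LOC401313 and LOC401314, so the overexpressed locus was checked first. It lies within the STEAP1B entry, with 9, 11 and 23 counts in vector and 94628, 92527 and 90297 with LOC401312. All 3 titled libraries were therefore high, the replicates with the other genotype labels included. CPS1 rose by 1.08 on the log2 scale (SE 0.04, adjusted p = 1.04e-06). Library totals ran from 60971105 to 73994619 counts. The labels do not say whether the libraries came from separate cultures, and p-values then measure the spread between libraries alone, which may be technical.

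Intermediate filaments are the tough, rope-like part of the cytoskeleton. Keratin filaments form from pairs of an acidic type I and a basic type II keratin, and an unpaired keratin is degraded. Simple epithelia such as those lining the lung airways and alveoli carry KRT8 with KRT18, joined in many of them by KRT7 and KRT19. KRT10 belongs to the upper layers of the epidermis, KRT80 to a broad range of epithelia, and KRT81 and KRT86 to the hair cortex. Vimentin is the type III filament of mesenchymal cells and of many cultured carcinoma lines, and nestin is a large type VI filament protein of neural progenitors, muscle precursors and vessels. The keratins named for wounding in skin, KRT6A, KRT6B, KRT6C, KRT16 and KRT17, were not among the 10 genes and are given further on.

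Of the 10 genes, 1 rose with LOC401312 (KRT19), none fell and 9 did not pass the test (edgeR, Benjamini-Hochberg adjusted p under 0.05 over 19620 tested entries). Over all tested entries 8.72% were called, 4.13% higher and 4.58% lower, so 1 call in 10 lies near that background. The median log2 change of the 10 genes was 0.03, against 0 over all tested entries. All 10 passed the filter on low counts. At an unadjusted p under 0.05, KRT7 and VIM were also higher and NES was lower, and DESeq2 and limma called none of the 10 lower. The 2 groups of libraries did not overlap for KRT7, KRT19 and VIM, each higher with LOC401312. Groups that did not overlap made up 27.9% of all tested entries, and 14% were of this kind and higher. In bulk RNA, fewer cells of a kind and less RNA per cell cannot be told apart.

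**Figure D1:**
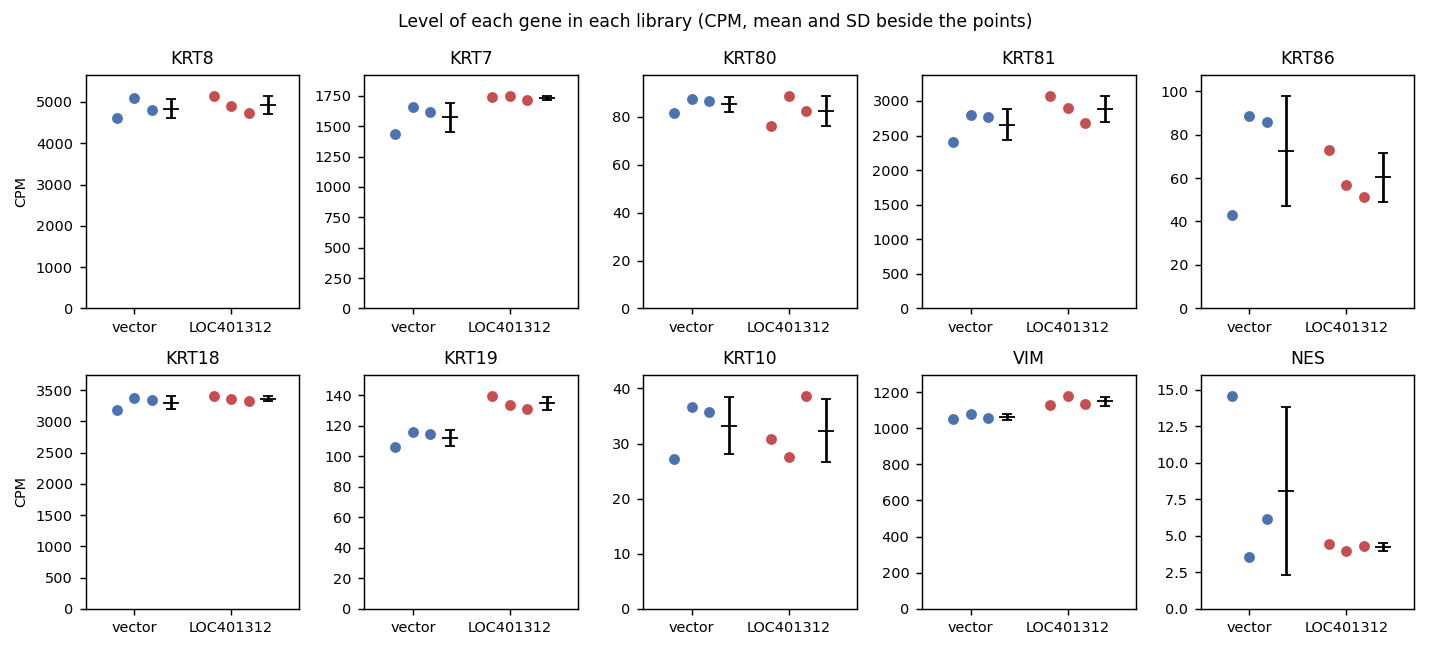
Level of each of the 10 genes in CPM (counts divided by the scaled library size, y axes from 0) in the 3 vector libraries (blue) and the 3 LOC401312 libraries (red), with the mean and SD in black. KRT7, KRT19 and VIM have separate groups of points, and vector replicate 1 stands far above the other 5 libraries for NES.

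The hair keratins KRT81 and KRT86 are shown by sequence first, since their transcripts share long identical stretches. Both lie in the type II keratin cluster of chromosome 12 (GRCh38): KRT81 (ENSG00000205426) at chr12:52285913-52291534 on the minus strand, wholly inside the span of KRT86 (ENSG00000170442), chr12:52249300-52309163 on the plus strand. In the principal transcripts of GENCODE release 29 their coding sequences were 94.2% identical, with 85 mismatches over 1454 aligned bases. From coding base 61 to 665 of KRT81, 605 bases were identical in KRT86. A stretch of 120 bases within that run, starting at coding base 303 of KRT81, is shown for the 4 coding copies, because a read from it could be given to either of the first 2. Capitals mark the 2 differences of KRT83 and the 4 of KRT85 from KRT81.
KRT81: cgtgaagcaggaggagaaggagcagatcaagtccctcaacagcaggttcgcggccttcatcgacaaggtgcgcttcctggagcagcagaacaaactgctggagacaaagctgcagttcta
KRT86: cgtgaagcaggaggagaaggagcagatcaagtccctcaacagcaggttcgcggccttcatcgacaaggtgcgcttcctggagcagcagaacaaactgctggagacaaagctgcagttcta
KRT83: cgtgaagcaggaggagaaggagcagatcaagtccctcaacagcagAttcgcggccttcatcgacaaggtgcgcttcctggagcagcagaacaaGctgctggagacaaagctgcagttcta
KRT85: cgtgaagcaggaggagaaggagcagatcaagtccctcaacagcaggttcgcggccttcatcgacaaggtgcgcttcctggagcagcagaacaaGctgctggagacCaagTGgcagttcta
Over the whole transcript, 29.4% of the 100-base windows of KRT81 also occurred in KRT86, and 27.0% of those of KRT86 in KRT81. By the same measure KRT7, KRT10, KRT18, KRT19, KRT80, VIM and NES had no 100-base window in a transcript of another gene. The spans of the KRT7 and KRT86 entries nevertheless share 2887 bases on the same strand. KRT8 had 92.8% of its windows to itself, and 4.29% were shared with its pseudogene KRT8P3. How the authors' counting placed reads that match more than 1 gene, and whether it used the strand, is not stated in these sources.

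KRT8 and KRT18, the partners of the simple-epithelial filament, were the most counted of the 10 genes and held nearly the same level in both groups. KRT8 (ENSG00000170421, chr12:52897187-52949920, minus strand) stood at 4619, 5093 and 4804 CPM in vector replicates 1, 2 and 3 and at 5147, 4908 and 4729 in LOC401312 replicates 1, 2 and 3. The groups overlapped, and the log2 change was 0.03 (SE 0.04, 95% interval -0.07 to 0.12, adjusted p = 0.792). KRT18 (ENSG00000111057, chr12:52948871-52952900, plus strand) stood at 3186, 3376.5 and 3338 CPM against 3403, 3365 and 3321. Its groups overlapped too, with a log2 change of 0.03 (SE 0.03, interval -0.04 to 0.10, adjusted p = 0.683). In this fit neither interval reached beyond 0.12 in either direction. Those intervals cover the spread between libraries under 1 scaling. Over the other settings tried, the log2 change ran from -0.09 to 0.153 for KRT8 and from -0.089 to 0.154 for KRT18. By count KRT8 ranked 12 and KRT18 ranked 19 among all 38170 entries.

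The genes of this pair stand head to head on opposite strands, and their entries share 1050 bases. In each library the ratio of KRT8 to KRT18 in FPKM (fragments scaled for transcript length and library total) was close to constant. It was 0.654 ± 0.017 (SD, n = 3) in vector and 0.653 ± 0.020 (SD, n = 3) with LOC401312. In counts, which are not scaled for length, the ratio was 1.466 in vector and 1.465 with LOC401312. It therefore does not say which gene of the pair was higher. Processed pseudogenes of these genes are common in the genome, and the table listed 36 for KRT8 and 42 for KRT18. They held 0.441% to 0.559% of the summed counts of KRT8 and its pseudogenes, with KRT8P3 and KRT8P12 the most counted, and 0.0690% to 0.0915% for KRT18. None of the 11 KRT8 and 9 KRT18 pseudogenes tested was called by edgeR (1 and 0 at an unadjusted p under 0.05), and adding them to their genes left both log2 changes at 0.03.

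KRT7, the type II keratin of ductal and glandular epithelia and the usual partner of KRT19, was higher in all 3 LOC401312 libraries without passing the test. KRT7 (ENSG00000135480, chr12:52232520-52252186, plus strand) stood at 1434, 1662 and 1620.0 CPM in vector and at 1736, 1748 and 1713 with LOC401312. The groups did not overlap, and vector replicate 1 was the lowest library. The mean was 1572 ± 121 CPM (SD, n = 3) in vector and 1732 ± 17.8 with LOC401312. The log2 change was 0.14 (SE 0.05, interval 0.03 to 0.25, adjusted p = 0.123), and it was 0.08 (adjusted p = 0.131) without vector replicate 1. DESeq2 and total-count scaling each called it higher, with adjusted p of 0.0249 and 0.0426, settings under which 7.53% and 5.09% of entries were called higher.

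Within a library KRT7 can be read against KRT8, a ratio that no scaling of the library alters. In FPKM it was 0.534, 0.562 and 0.580 in vector and 0.580, 0.613 and 0.623 with LOC401312. The groups touched at the third digit, with means of 0.559 ± 0.023 and 0.606 ± 0.022 (SD, n = 3 each). The antisense transcript KRT7-AS, which lies inside KRT7 on the other strand, had a log2 change of 0.13 (SE 0.08, adjusted p = 0.371).

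KRT19, the short type I keratin of simple and ductal epithelia that lacks the usual tail domain, was the gene that rose. KRT19 (ENSG00000171345, chr17:41523617-41528308, minus strand) stood at 106, 116 and 115 CPM in vector and at 139, 134 and 131 with LOC401312. The groups did not overlap. The means were 112 ± 5.20 and 135 ± 4.35 CPM (SD, n = 3 each), a 1.20-fold difference. The log2 change was 0.26 (SE 0.05, interval 0.16 to 0.37, adjusted p = 0.0077). An exact two-sided permutation test of the CPM gave p = 0.1, the smallest that 3 libraries against 3 allow.

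The rise of KRT19 kept its call with each single library left out, at log2 changes of 0.23 to 0.29. With LOC401312 replicate 1, the library whose genotype label names the locus, as the only one of its group, the log2 change was 0.32 and the call was lost (adjusted p = 0.141). With vector replicate 1 left out as well, which sets that 1 library against 2, it was 0.28 (adjusted p = 0.0246). In both fits the lone library is assumed to vary like the vector libraries. In the deposited FPKM, KRT19 stood at 38.1, 38.8 and 38.4 in vector and at 53.1, 49.7 and 48.5 with LOC401312. Those FPKM values carried a group shift of their own, a median log2 difference of 0.11 across the 6137 genes whose mean FPKM reached 5.

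**Figure D2:**
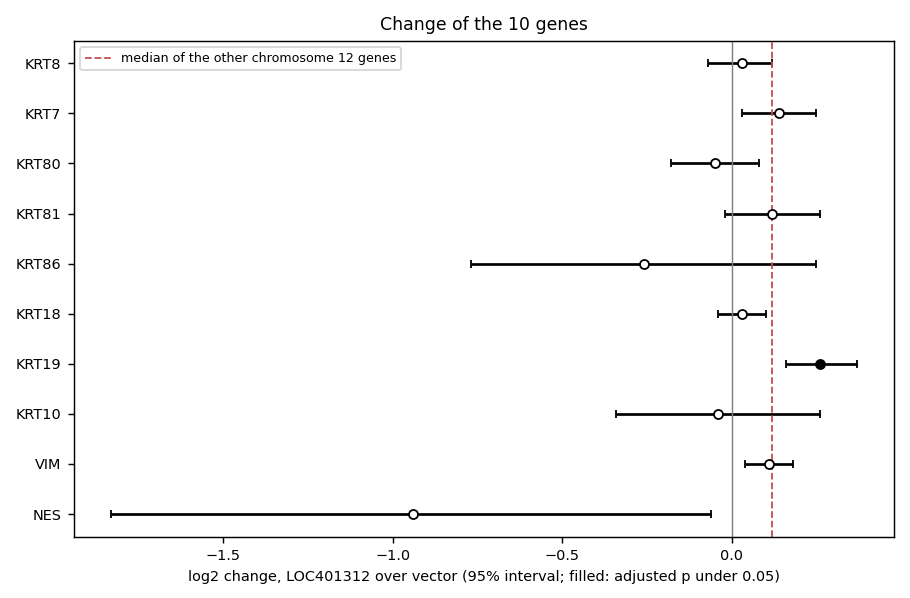
Change of each of the 10 genes (x axis, log2 of LOC401312 over vector, with its 95% interval; filled point, adjusted p under 0.05). The dashed line is the median of the other chromosome 12 genes, 0.12, which bears on the 6 genes of that chromosome: KRT8, KRT7, KRT80, KRT81, KRT86 and KRT18. KRT19 alone is filled, and the interval of NES is the widest.

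The genes next to KRT19 in the type I cluster of chromosome 17 moved in both directions. KRT15, the keratin of basal stem cells, held 228, 210 and 222 counts in vector and 390, 362 and 400 with LOC401312. It rose by 0.72 on the log2 scale (SE 0.14, adjusted p = 0.0107), and the call was lost without LOC401312 replicate 3 (adjusted p = 0.0569). KRT13, the type I keratin of moist stratified linings such as the oesophagus, held 338, 253 and 286 counts in vector and 5, 0 and 0 with LOC401312. It fell by 7.42 on the log2 scale (SE 0.59, adjusted p = 8.12e-05). Without LOC401312 replicate 1, which holds all 5 counts of its group, the fitted value was -11.21, which is no bound since the group is then at 0. Other chromosome 17 genes of at least 4 CPM had a median log2 change of 0.01 (761 genes).

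KRT10 (ENSG00000186395, chr17:40818117-40822614, minus strand), the type I keratin of suprabasal epidermis, did not pass the test. It stood at 27.2, 36.6 and 35.7 CPM in vector and at 30.8, 27.5 and 38.6 with LOC401312. The groups overlapped over nearly their whole range, and the log2 change was -0.04 (SE 0.14, interval -0.34 to 0.26, adjusted p = 0.914). The entry shares 3509 bases with TMEM99 on the other strand, which had a log2 change of 0.12 (adjusted p = 0.425).

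KRT80 (ENSG00000167767, chr12:52168996-52192014, minus strand), a type II keratin found near desmosomes and cell edges, did not pass the test either. It stood at 81.7, 87.4 and 86.5 CPM in vector and at 76.2, 88.8 and 82.2 with LOC401312. The highest and the lowest of the 6 values were both LOC401312 libraries, so the groups overlapped. The log2 change was -0.05 (SE 0.06, interval -0.18 to 0.08, adjusted p = 0.711).

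KRT81 ranked 21 by FPKM among all entries and did not pass the test. It stood at 2401, 2793 and 2772 CPM in vector and at 3069, 2892 and 2685 with LOC401312. LOC401312 replicate 3 lay below vector replicates 2 and 3, so the groups overlapped. The log2 change was 0.12 (SE 0.06, interval -0.02 to 0.26, adjusted p = 0.306). It was 0.05 (adjusted p = 0.603) without vector replicate 1, and ranged up to 0.17 with other single libraries left out. KRT86, its close copy, stood at 43.0, 88.4 and 85.7 CPM in vector and at 72.9, 57.0 and 51.2 with LOC401312. Vector replicate 1 was the lowest of all 6, and the other vector libraries were the highest. The log2 change of KRT86 was -0.26 (SE 0.23, interval -0.77 to 0.25, adjusted p = 0.577). Without vector replicate 1 it was -0.53 and passed the test (adjusted p = 0.0258, in a fit that called 5.13% of entries lower). The sum of KRT81, KRT83 and KRT86 had a log2 change of 0.11 (edgeR, adjusted p = 0.377). KRT81 made up most of that sum, 178271 of 182528 counts in vector replicate 1, so the sum does not show the direction of KRT86.

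The neighbouring copies of the hair keratins also moved apart between libraries of 1 group. KRT85 held 11200, 8585 and 0 counts in vector and 0, 9559 and 11034 with LOC401312, so that 1 library of each group had none. Its log2 change was 0.05 (SE 1.43, adjusted p = 0.989). KRT83 held 1061, 567 and 1191 counts against 1473, 1139 and 959 (0.27, SE 0.22, adjusted p = 0.547). KRT87P, a pseudogene of the cluster, held 14639, 17667 and 15570 against 16026, 14376 and 16189 (-0.13, adjusted p = 0.581). With these 3 entries, KRT81 and KRT86 added together, the level was 2806, 3330.4 and 3130.1 CPM in vector and 3390 (replicate 1), 3316 and 3159 with LOC401312. The sum had a log2 change of 0.09 (SE 0.06, adjusted p = 0.411). KRT85 had 98.9% of its 100-base windows to itself, and 1.11% were shared with KRT87P. Whether the authors' assignment of shared reads set the zeros of KRT85 was not tested.

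**Figure D3:**
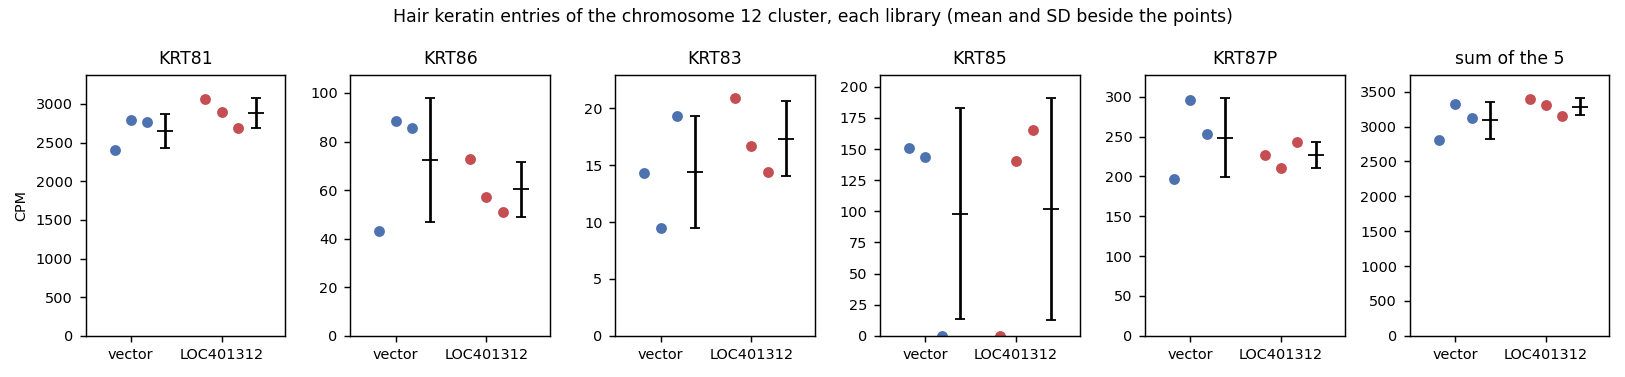
CPM (y axes from 0) of KRT81, KRT86, KRT83, KRT85, KRT87P and their sum in the 3 vector (blue) and 3 LOC401312 libraries (red), with mean and SD in black. KRT85 is at 0 in vector replicate 3 and in LOC401312 replicate 1, and the sum runs from 2806 to 3390 CPM with overlapping groups.

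Of the 10 genes 6 lie on chromosome 12, whose genes were on balance higher with LOC401312. The other 636 genes of that chromosome with at least 4 CPM had a median log2 change of 0.12, and 110 of them were called higher (17.3%) and 8 lower. Within 5 Mb of the keratin cluster the median over 162 genes was 0.09, with 20 called higher (12.3%) and 3 lower. With the median of each chromosome removed from each library, KRT8 was at -0.09 (adjusted p = 0.263), KRT18 at -0.09 (0.125), KRT7 at 0.02 (0.856) and KRT81 at 0.00 (0.991). In that fit 3.48% of entries were called higher. KRT80 was at -0.16 (adjusted p = 0.144) and KRT86 at -0.38 (0.418). Read against their chromosome, none of the 6 passed the test, as in the reported fit, and KRT8 and KRT18 changed sign. KRT19 on chromosome 17 was at 0.26 (0.00602) and VIM on chromosome 10 at 0.10 (0.11). The part of the chromosome in the values of KRT7 and KRT81 was not tested further.

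VIM (ENSG00000026025, chr10:17228241-17237593, plus strand) was slightly higher in each LOC401312 library and did not pass the test. It stood at 1050.3, 1080.4 and 1055 CPM in vector and at 1131, 1178 and 1135 with LOC401312. The groups did not overlap, with means of 1062 ± 16.1 and 1148 ± 25.9 CPM (SD, n = 3 each). The log2 change was 0.11 (SE 0.03, interval 0.04 to 0.18, adjusted p = 0.0609). Some other settings put it past the threshold of 0.05. DESeq2 gave an adjusted p of 0.00802, total-count scaling 0.0164, upper-quartile scaling 0.0489 (4.33% of entries called higher), and the fit limited to a mean FPKM of 1 or more gave 0.031 (6.75% called higher). The unscaled FPKM gave a log2 change of 0.24 (limma, adjusted p = 0.0158, with 8.35% of entries called higher), and after the libraries' medians were set equal it was 0.13 (adjusted p = 0.0535, with 3.09% called higher). Across every setting tried the sign was the same.

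The balance between filament classes differed little between the groups. The ratio of VIM to the summed keratins in FPKM was 0.0562 ± 0.0029 in vector and 0.0576 ± 0.0026 with LOC401312 (SD, n = 3 each). The ratio of summed type II to summed type I keratins was 2.21 ± 0.092 in vector and 2.30 ± 0.091 with LOC401312. For both ratios the difference between groups was smaller than the SD within a group. All 10 genes together took 1.30% to 1.41% of the counts in vector libraries and 1.41% to 1.49% with LOC401312.

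The order of levels between genes depends on the length used. By deposited FPKM, KRT81 led with means of 1102 in vector and 1308 with LOC401312, followed by KRT18 (862 and 959), KRT8 (564 and 627), KRT7 (315 and 379) and VIM (165 and 194). KRT19 came next (38.5 and 50.4), then KRT86 (23.7 and 21.8), KRT80 (15.6 and 16.5), KRT10 (12.3 and 13.1) and NES (1.19 and 0.667). Between KRT86 and KRT80 the vector libraries overlapped, and all other neighbours in this order were apart within each group. CPM on the library total, divided by the principal transcript's length in kilobases, put KRT8 first (2730 in vector), then KRT18 (2300), KRT81 (1360) and KRT7 (888). KRT81 thus moved from the first to the third place, and the order of KRT7, VIM, KRT19, KRT86, KRT80, KRT10 and NES stayed.

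NES (ENSG00000132688, chr1:156668763-156677407, minus strand) had the widest spread of the 10 genes, and 1 vector library made most of it. It held 1082, 211 and 380 counts in vector, which is 14.6, 3.53 and 6.18 CPM. With LOC401312 it held 313, 270 and 286 counts, which is 4.44, 3.96 and 4.28 CPM. The LOC401312 libraries lay within the range of the vector libraries. The log2 change was -0.94 (SE 0.40, interval -1.83 to -0.06, adjusted p = 0.192). Without vector replicate 1 it was -0.20 (adjusted p = 0.673), and without vector replicate 2 it was -1.30 and passed the test (adjusted p = 0.0403, in a fit that called 2.82% of entries lower).

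Some markers of other cell types were high in the same vector library as NES. Vector replicate 1 was the highest of the 6 libraries for 5 of 10 fibroblast markers, for 4 of 8 blood cell markers and for 3 of the 5 neural progenitor markers with counts. It was also the highest for 4 of the 11 squamous and urothelial markers with counts. For none of the 12 trophoblast and 10 alveolar and A549 markers with counts was it the highest. The share of all entries highest in this library is not given here. Among the vector libraries it was the lowest for THY1 and in the middle for COL1A1. POSTN, a matrix protein of stromal fibroblasts, held 677, 4 and 27 counts in vector and 4, 12 and 21 with LOC401312. COL3A1, a fibrillar collagen, held 1549, 193 and 481 against 131, 251 and 263. PTPRC, the pan-leukocyte antigen CD45, held 256, 4 and 0 against 0, 8 and 0, and the red-cell gene HBB held 653, 34 and 6 against 18, 8 and 7. The summed level of the 10 fibroblast markers ranged from 54.7 to 92.8 CPM in vector and from 33.8 to 37.6 with LOC401312. Of these 10, COL1A1, COL1A2 and THY1 fell, with log2 changes of -0.95, -1.44 and -0.72, FAP rose and 6 did not pass the test. Among all tested entries 4.58% were lower and 4.13% higher. The 8 blood cell markers summed to 44.0 to 67.0 CPM in vector and 53.6 to 61.9 with LOC401312, with CD68 called higher (log2 change 0.41). The neural progenitor markers were low, at a sum of 5.97 to 8.86 CPM in vector and 6.86 to 8.19 with LOC401312, and edgeR called none of the 3 tested, also at an unadjusted p under 0.05. PAX6 and SOX2 had log2 changes of -0.21 and 0.33. The part of other cells' RNA in the level of NES was not tested.

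LOC401312 replicates 2 and 3 stood apart in placental genes. The 12 trophoblast markers summed to 1.76 to 2.63 CPM in vector, 2.69 in LOC401312 replicate 1, and 107 and 101 in replicates 2 and 3. Of the 10 tested, 9 were called higher, beside 4.13% of all tested entries. KISS1, CGB8 and CGB5 had the smallest p of the list, with log2 changes of 6.29, 4.80 and 5.57. CGA, the hormone alpha chain, held 24, 53 and 24 counts in vector and 25, 3645 and 3766 with LOC401312. Trophoblast and stromal cells also make KRT7, KRT8, KRT18, KRT19 or VIM. Of these 5 genes VIM alone was higher in both of those replicates than in LOC401312 replicate 1, at 1178 and 1135 against 1131 CPM. The part of placental RNA in the levels of the 5 genes was not tested. Without vector replicate 1 and LOC401312 replicates 2 and 3, which leaves 1 library against 2 with the spread taken from the vector pair, VIM was at 0.09 and NES at -0.13. The line itself was checked on alveolar and A549 markers. The surfactant gene SFTPA2 was at 0 in all 6 libraries, SFTPB reached 18 counts at most and the lung factor NKX2-1 reached 4. SFTPD held 41, 51 and 50 counts in vector and 154, 84 and 139 with LOC401312 (log2 change 1.31, adjusted p = 0.0287). NAPSA held 72, 67 and 71 against 155, 137 and 158 (1.02, adjusted p = 0.0183). Of the detoxification genes known for this line, AKR1B10 and GPX2 fell, with log2 changes of -0.45 and -0.88. ALDH1A1, the most counted gene of the list, fell as well (-0.12, adjusted p = 0.0298). The list summed to 7592 to 7998 CPM in vector and 6545 to 6622 with LOC401312. Of its 8 tested genes 3 were called higher and 4 lower, beside 4.13% and 4.58% of all tested entries.

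**Figure D4:**
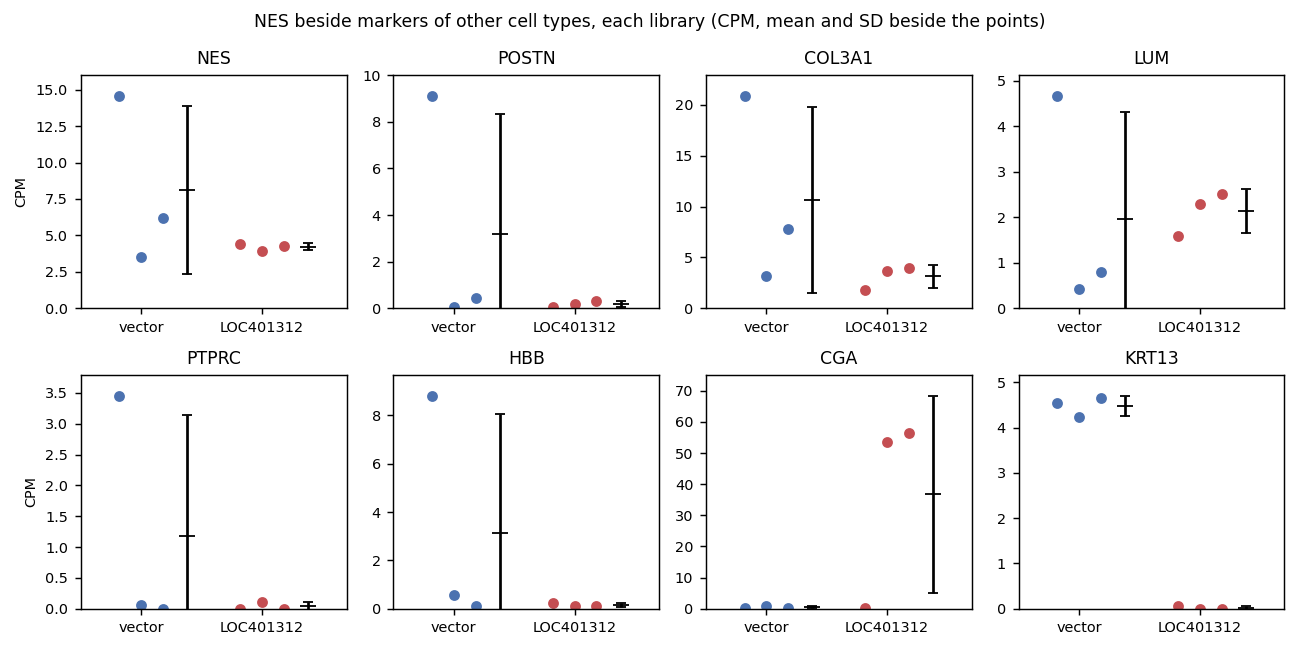
CPM (y axes from 0) of NES beside POSTN, COL3A1, LUM, PTPRC, HBB, CGA and KRT13 in the 3 vector (blue) and 3 LOC401312 libraries (red), with mean and SD in black (bars end at 0). Vector replicate 1 is the highest library for NES and for the stromal and blood genes, LOC401312 replicates 2 and 3 are high for CGA, and KRT13 separates the groups.

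In CPM, vector replicate 1 was also the lowest of the 3 vector libraries for all 8 keratins and for VIM. In deposited FPKM this held for 5 of these 9 genes, KRT7, KRT10, KRT19, KRT81 and KRT86. Against the mean over all libraries its log2 CPM was -0.57 for KRT86, -0.25 for KRT10, -0.21 for KRT19, and -0.20 for KRT7 and KRT81. For KRT18 it was -0.06 and for VIM -0.07.

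The wound keratins were barely detected, at a sum of 1.59 to 3.86 CPM in vector and 1.41 to 1.85 with LOC401312. Of these 5 genes 4 had an entry and 3 were tested: KRT17 fell, KRT6A and KRT16 did not pass the test. KRT17, a type I keratin of healing skin and many squamous tumours, held 67, 137 and 71 counts in vector and 0, 8 and 0 with LOC401312. Its log2 change was -5.15 (SE 0.90, adjusted p = 0.00651). Without LOC401312 replicate 2, which holds all 8 counts of its group, the fitted value was -9.59, which is no bound since the group is then at 0. KRT16 and KRT6A had log2 changes of 0.37 (adjusted p = 0.601) and 0.84 (adjusted p = 0.694). Keratins of stratified epithelia and skin had 13 entries, of which 6 were tested, with KRT15 higher, KRT13 lower and 4 not passing. The shares over all tested entries were 4.13% higher and 4.58% lower. The other simple-type keratins KRT20, KRT23 (log2 change 0.91) and KRT222 (0.17) did not pass, and nor did any of the 3 hair and root sheath keratins tested out of 14, also at an unadjusted p under 0.05 (edgeR). The squamous and urothelial markers, KRT13 among them, summed to 24.8 to 27.5 CPM in vector and 19.4 to 21.9 with LOC401312. KRT13 was the single one of their 7 tested genes to be called.

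Among 12 tested intermediate filament genes outside the keratins, 1 fell and 11 did not pass, beside 4.58% of all tested entries lower. INA, alpha-internexin of neuronal filaments, went from 49.1 ± 0.651 to 41.6 ± 3.29 CPM (SD, n = 3 each; log2 change -0.24, SE 0.06, adjusted p = 0.0374). The call was lost on leaving out any single library, with adjusted p from 0.0523 to 0.117. The nuclear lamin LMNA stood at 428 ± 26.1 and 436 ± 16.5 CPM (log2 change 0.03, adjusted p = 0.811).

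Genes that tie keratin filaments to desmosomes and to other structures moved in both directions. Of the 12 linkers and plaque proteins tested 4 rose, 4 fell and 4 did not pass, and their median log2 change was -0.08. Over all tested entries 4.13% were higher and 4.58% lower. DSP, desmoplakin, which anchors keratin to the desmosome, stood at 178, 179 and 171 CPM in vector and at 214, 219.9 and 211 with LOC401312. It rose by 0.29 (SE 0.04, adjusted p = 0.00157). PERP, a desmosome membrane protein, stood at 314, 318 and 312 CPM against 241, 257 and 257. It fell by 0.32 (SE 0.04, adjusted p = 0.000883). PPL, periplakin of the cell envelope and desmosome, stood at 20.5, 23.8 and 20.9 CPM against 14.8, 14.3 and 14.4, and fell by 0.58 (SE 0.08, adjusted p = 0.00216). None of these 3 genes had overlapping groups, and each kept its call with any single library left out.

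The other 5 calls among the linkers were PLEC (plectin), DST and the plakophilin PKP3, higher, and PKP4 and JUP (plakoglobin), lower. Their log2 changes were 0.22, 0.25, 0.23, -0.24 and -0.17. Each lost its call with 1 or more single libraries left out. PLEC lost it without vector replicate 3 or LOC401312 replicates 1 or 3, and PKP3 without vector replicate 3 or LOC401312 replicates 1 or 2. PKP4 lost it without LOC401312 replicate 2, and DST and JUP without any library other than vector replicate 1. With chromosome medians removed, PKP4 on chromosome 2 was at -0.01 (adjusted p = 0.948).

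**Figure D5:**
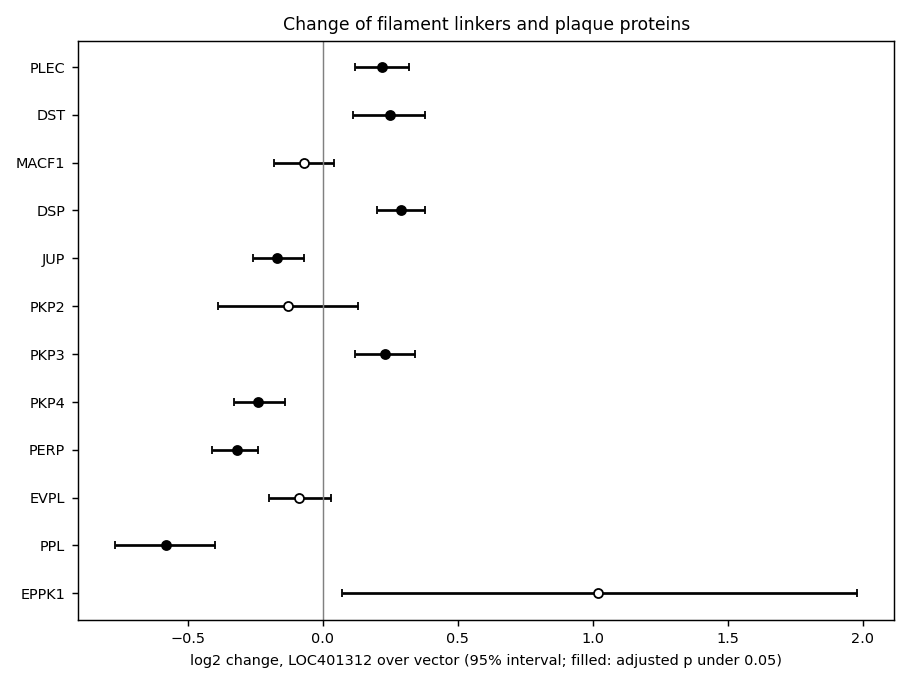
Change of the 12 tested filament linkers and plaque proteins (x axis, log2 of LOC401312 over vector, with its 95% interval; filled point, adjusted p under 0.05). PLEC, DST, DSP and PKP3 lie to the right, and JUP, PKP4, PERP and PPL to the left.

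Of 23 chaperones, kinases and regulators of filaments, 1 rose, 2 fell and 20 did not pass, beside 8.72% of all tested entries called in either direction. TGM2, the transglutaminase that can cross-link keratins, stood at 1247, 1349.6 and 1338 CPM in vector and at 2006.5, 1965 and 1977 with LOC401312. It rose by 0.60 on the log2 scale (SE 0.04, adjusted p = 1.62e-05). SFN, the 14-3-3 protein that binds epithelial keratins, went from 203 ± 17.5 to 170.0 ± 3.43 CPM (log2 change -0.26, adjusted p = 0.023). HSPA8, a constitutive chaperone, went from 1937 ± 74.6 to 1746 ± 59.9 CPM (log2 change -0.15, adjusted p = 0.0406). Both calls were lost without any library other than vector replicate 1, at adjusted p up to 0.11 for SFN and up to 0.152 for HSPA8. On the deposited FPKM, which lie higher with LOC401312 as a whole, the lower calls of SFN, HSPA8, INA, JUP and PKP4 were also lost (limma, log2 changes of -0.13, -0.02, -0.12, -0.04 and -0.11). After the libraries' medians were set equal these were -0.24, -0.13, -0.22, -0.15 and -0.21, and PKP4 alone of the 5 passed the test (adjusted p = 0.0478).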

How the data were processed

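Total RNA of 6 A549 libraries was sequenced, 3 per group by title. The authors deposited 1 table with raw counts per entry and FPKM values, per the file headers. The submitters' processing notes name cutadapt 1.9, FastQC and GRCh38 (hg38). Aligner, counter, annotation release and strand use were not given in the sources used here. From the deposited counts, edgeR 4.0.16 (R 4.3.3, TMM scaling, filterByExpr, quasi-likelihood test) was fitted to all 6 libraries with group as the only term. Of 38170 entries, 19620 were tested and adjusted together by Benjamini-Hochberg, with a threshold of 0.05. CPM uses TMM library sizes. The biological coefficient of variation, the spread between libraries beyond counting error, was 17%. On simulated counts for this comparison over 19620 genes the fit recovered 83 of 100 genes changed 1.5-fold and 99 of 100 changed 2-fold, with 5 false calls. The changed genes were drawn only from those with a mean of at least 5 CPM. Recovery of lower entries and of changes below 1.5-fold, such as that of KRT19, was not simulated. DESeq2 1.42.0 and limma 3.58.1 on log2(deposited FPKM + 0.1) were alternatives, the latter also with pseudocounts of 1 and 0.01. Further alternatives were other scalings, filters, single libraries left out, a replicate block, chromosome medians removed, and related hair keratin copies or pseudogenes summed. Alternatives chosen after seeing the data were FPKM with library medians set equal, vector replicate 1 with LOC401312 replicates 2 and 3 left out, and the sum of 5 hair keratin entries. Sequences and transcript lengths are from GENCODE release 29. The gene coordinates of that release differed from the deposited ones for KRT8, KRT10, KRT18, KRT80, VIM and NES.

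The members and gene lists were chosen with earlier results of these data known. All 10 members are named, and from each other list up to 3 called genes with the smallest p, or the 2 with the highest mean CPM where none was called. CGA, SFTPA2, SFTPB, SFTPD, NAPSA, NKX2-1, ALDH1A1, KRT87P, KRT83 with KRT85 as copies, KRT6A, KRT16, KRT20, LMNA, the stromal, blood and placental markers, and PLEC, DST, PKP3, PKP4 and JUP were named after their values were seen.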

Additional observations from a re-analysis of the deposited data

How the results depend on the processing

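The number of the 10 genes called higher, 1 as reported, was 3 with DESeq2, with total-count scaling and with limma on log2(FPKM + 0.1, 1 or 0.01), where KRT7 and VIM joined KRT19. It was 2 with upper-quartile scaling and on entries with a mean FPKM of at least 1, where VIM joined it, and 0 with LOC401312 replicate 1 as the only library of its group, which was assumed to vary like the others. It was 1 with any single library left out. The number called lower, 0 as reported, ranged from 0 to 1 with single libraries left out (KRT86 without vector replicate 1, NES without vector replicate 2). Over all tested entries, 811 higher and 899 lower became 1246 higher with DESeq2, and 1639, 1625 and 1591 higher with 308, 305 and 301 lower by limma at the 3 pseudocounts. With single libraries left out they ranged from 393 to 963 higher and from 439 to 1042 lower. With LOC401312 replicate 1 alone they were 84 and 91, with vector replicate 1 and LOC401312 replicates 2 and 3 left out 352 and 436, with no filter 577 lower, and with chromosome medians removed 514 lower. The cause of these shifts was not tested, and some of these fits held fewer libraries or entries.

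Signs turned for genes that did not pass the reported test. KRT8 ranged from -0.006 to 0.065 with single libraries left out and was -0.09 with chromosome medians removed, where KRT18 was -0.089. KRT80 was 0.076, 0.072 and 0.076 by limma at the 3 pseudocounts, and ranged from -0.104 to 0.006 with single libraries left out. KRT10 was 0.085, 0.079 and 0.085 by limma and ranged from -0.185 to 0.066 with single libraries left out. KRT86 was 0.015 with LOC401312 replicate 1 alone. The sums of 3 and of 5 hair keratin entries, made up mostly of KRT81, were at 0.11 and 0.09.

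Replicate numbers gave no sign of pairing: same-numbered libraries deviated with correlations of -0.17, -0.026 and -0.067. The highest correlations with a library of another number were 0.162, 0.039 and 0.165. These values do not tell how the libraries were prepared. With a replicate block 509 entries were higher and 579 lower. KRT19 stayed called (0.26, adjusted p = 0.041), and no other of the 10 genes was called.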
